A study of Homo sapiens with 4 samples.

Results

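The kinesin motor genes are the genes whose identifier in the deposited tables is KIF followed by a number and at most a letter from A to C and a further digit. The rule found 39 of the 26485 identifiers, and 29 of the 39 averaged 1 TPM or more across the 4 libraries. TPM is the level of a transcript per length, scaled to a fixed total in each library. The names leave out kinesins that carry another name, such as CENPE and KIFC1, which are described separately. By their textbook roles the 39 genes were divided into 13 mitotic kinesins, 13 transport kinesins and 13 others. At the expression threshold, KIF4B (1.04 TPM on average) and KIF21B (1.10) lay just inside, and KIF17 (0.806) lay just outside.

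Kinesins are motor proteins that use ATP to move along microtubules or to take apart their ends. Mitotic kinesins build the spindle, align and separate chromosomes and complete the division of the cell, and their mRNAs are made mainly late in the cell cycle. Transport kinesins carry vesicles, organelles and mRNA towards the cell periphery in dividing and non-dividing cells alike, and several of them are best known from neurons. The gain of mitotic kinesins is a familiar sign of rapid division in tumours.

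The libraries came from SW1736 and 8505C, established cell lines derived from anaplastic thyroid cancer, an undifferentiated thyroid tumour. The 4 groups were SW1736 with vehicle (DMSO), SW1736 with 1.5 µM DHT, 8505C with vehicle (DMSO) and 8505C with 1.5 µM DHT, all for 24 h. DHT stands here for dihydrotanshinone, a compound of Salvia root. Each group had 1 library, so no difference has a replicate check and none was tested. Of 8 thyroid markers 4 averaged 1 TPM or more, TSHR was listed at 0 in all 4 libraries, and TG, which encodes thyroglobulin, at 0 in 3. The 4 differed by line. In untreated SW1736 and 8505C, PAX8 stood at 87.1 and 0.282 TPM, FOXE1 at 60.6 and 0.101, NKX2-1 at 0 and 69.8, and HHEX at 28.3 and 13.5. Neural markers were mixed, since TUBB3 stood at 122 to 277 TPM but RBFOX3 at no more than 0.0966. SNAP25 stood at 44.8 TPM in untreated SW1736 and 0.0992 in untreated 8505C. Of 5 endothelial markers CDH5 and TIE1 stood at 128 and 43.4 TPM in untreated 8505C and at 0 in SW1736. PECAM1 (0.175), VWF (0) and KDR (0) were low in untreated 8505C too. The part of these markers in the results was not tested. Depth, taken from the ratio of coverage to FPKM, was 3.27 to 4.15 Gb of aligned bases, and 1 TPM corresponded to a mean read depth of 1.43 to 1.97, so that members near 1 TPM rest on a low read depth.

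The promoters of the classes differed in sequence, and a few are shown first. The motifs were not set against the differences with DHT. Windows of 300 bases, from 250 before to 50 after each RefSeq start (build GRCh38.p14), were found for 33 of the 39 genes. Both strands were searched for TTTGAA or TTCGAA, forms of the cell cycle homology region (CHR) of genes expressed late in the cell cycle, and for CCAAT, the box that NF-Y binds. The matches were counted separately, even where they shared bases. A CHR match was present in 10 of 13 mitotic kinesins (76.9%), in 1 of 11 transport kinesins and in 1 of 9 others, beside 11.8% of 14091 windows of the genes tested and 16.4% of all 34943 windows. CCAAT was present in 10 of 13 mitotic, 3 of 11 transport and 3 of 9 other kinesins, beside 35.1% of the windows of genes tested. Both were present in 9 of 13 mitotic kinesins, in KIF5B of the transport class and in KIF24 of the others, beside 4.71% of those windows. A match is a description of the letters and not a shown binding site.

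The 250 bases before the start are printed for the mitotic kinesins with the lowest, second lowest and highest SW1736 difference among those averaging 5 TPM or more, for the transport kinesin with the highest mean TPM, and for KIF11, chosen after its window was seen because both motifs precede its start. Capitals mark CHR and CCAAT matches on either strand, and each sequence reads 5′ to 3′ on the strand of its gene.
KIF20B (chr10:89701340-89701589, plus strand): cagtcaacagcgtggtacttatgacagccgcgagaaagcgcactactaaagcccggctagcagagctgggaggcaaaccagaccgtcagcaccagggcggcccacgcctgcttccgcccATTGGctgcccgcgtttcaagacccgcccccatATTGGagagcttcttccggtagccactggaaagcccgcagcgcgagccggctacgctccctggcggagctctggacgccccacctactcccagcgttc
KIF14 (chr1:200620752-200621001, minus strand): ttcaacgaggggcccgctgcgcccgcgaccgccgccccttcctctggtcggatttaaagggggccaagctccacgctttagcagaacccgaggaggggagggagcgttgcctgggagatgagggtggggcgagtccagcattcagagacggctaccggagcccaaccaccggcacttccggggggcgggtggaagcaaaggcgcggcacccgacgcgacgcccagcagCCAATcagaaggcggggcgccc
KIF22 (chr16:29790501-29790750, plus strand): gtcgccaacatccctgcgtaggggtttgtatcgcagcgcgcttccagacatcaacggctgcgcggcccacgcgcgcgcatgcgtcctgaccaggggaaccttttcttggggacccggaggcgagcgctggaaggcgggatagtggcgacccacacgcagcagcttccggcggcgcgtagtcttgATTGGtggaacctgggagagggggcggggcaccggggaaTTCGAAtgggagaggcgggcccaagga
KIF11 (chr10:92592880-92593129, plus strand): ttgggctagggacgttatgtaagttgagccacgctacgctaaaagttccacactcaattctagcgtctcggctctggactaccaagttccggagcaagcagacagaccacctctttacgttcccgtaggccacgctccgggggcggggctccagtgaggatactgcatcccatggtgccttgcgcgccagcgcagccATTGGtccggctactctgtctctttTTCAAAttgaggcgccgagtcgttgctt
KIF5B (chr10:32056426-32056675, minus strand): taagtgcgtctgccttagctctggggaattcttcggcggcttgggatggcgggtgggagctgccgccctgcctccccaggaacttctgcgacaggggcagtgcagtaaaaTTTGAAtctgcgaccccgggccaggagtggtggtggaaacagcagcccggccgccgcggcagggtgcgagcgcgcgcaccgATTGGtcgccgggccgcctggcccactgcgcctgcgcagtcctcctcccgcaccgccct
The CHR matches of KIF20B and KIF14 lie after the start and are therefore outside the printed bases. In KIF11 the centre of the CHR lies 25.5 bases after that of CCAAT, in KIF14 23.5 and in KIF4A and KIF4B 24.5. A spacing of 15 to 35 bases in this order, chosen after the windows were seen, was present in 5 of 13 mitotic kinesins, in 0 of 11 transport kinesins and in 0 of 9 others, beside 0.653% of the windows of genes tested. KIF5B also holds both motifs, but in the reverse order, with a CHR position of -80.5 bases relative to CCAAT. KIF20A had 2 CCAAT matches and no CHR, and its RefSeq start lay 384 bases from the start of the deposited gene. Such offsets were also seen in the other class, of 20202 bases in KIF25, 270 in KIF21A and 136 in KIF26A, none of which had a match.

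In the untreated cells the kinesin mRNAs were mostly mitotic ones. Levels are TPM, which is scaled per length and can be set side by side between genes of a library. The 13 mitotic kinesins summed to 864 TPM in SW1736 with DMSO and 819 in 8505C with DMSO, and the 13 transport kinesins to 428 and 469. Mitotic kinesins therefore held 62.7% of the kinesin TPM in SW1736 and 58.5% in 8505C. The other 13 genes summed to 86.4 and 111 TPM. All 39 kinesins summed to 1379 TPM in SW1736 and 1398.5 in 8505C, close to each other in size.

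KIF5B, the widely expressed motor of conventional kinesin, was the highest kinesin in untreated SW1736 at 171 TPM, where it ranked 1014th among the 11711 genes tested. It was followed by the mitotic genes KIF20A (131), KIF11 (124), KIF2C (121) and KIF22 (115). In untreated 8505C the first was KIF20A at 171.2 TPM, with KIF1C at 170.6 and KIF5B at 152 next. The leading motors were thus largely shared by the lines, whereas their order differed, and without replicates neighbours in this order cannot be separated.

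Of the 10 genes under 1 TPM, KIF2B, KIF12 and KIF25 were listed at 0 in all 4 libraries. KIF2B, a mitotic relative of KIF2C, was the only mitotic member under the threshold. Of the transport class, KIF17 was the highest under the threshold, at 1.35 and 1.15 TPM in SW1736 with DMSO and DHT and 0.303 and 0.422 in 8505C. KIF1A and KIF5A, known from neurons, did not exceed 0.0567 and 0.340 TPM in any library. The highest of the other class under the threshold was KIF26A, listed at 0 in both SW1736 libraries and at 0.377 and 0.557 TPM in 8505C.

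**Figure D1:**
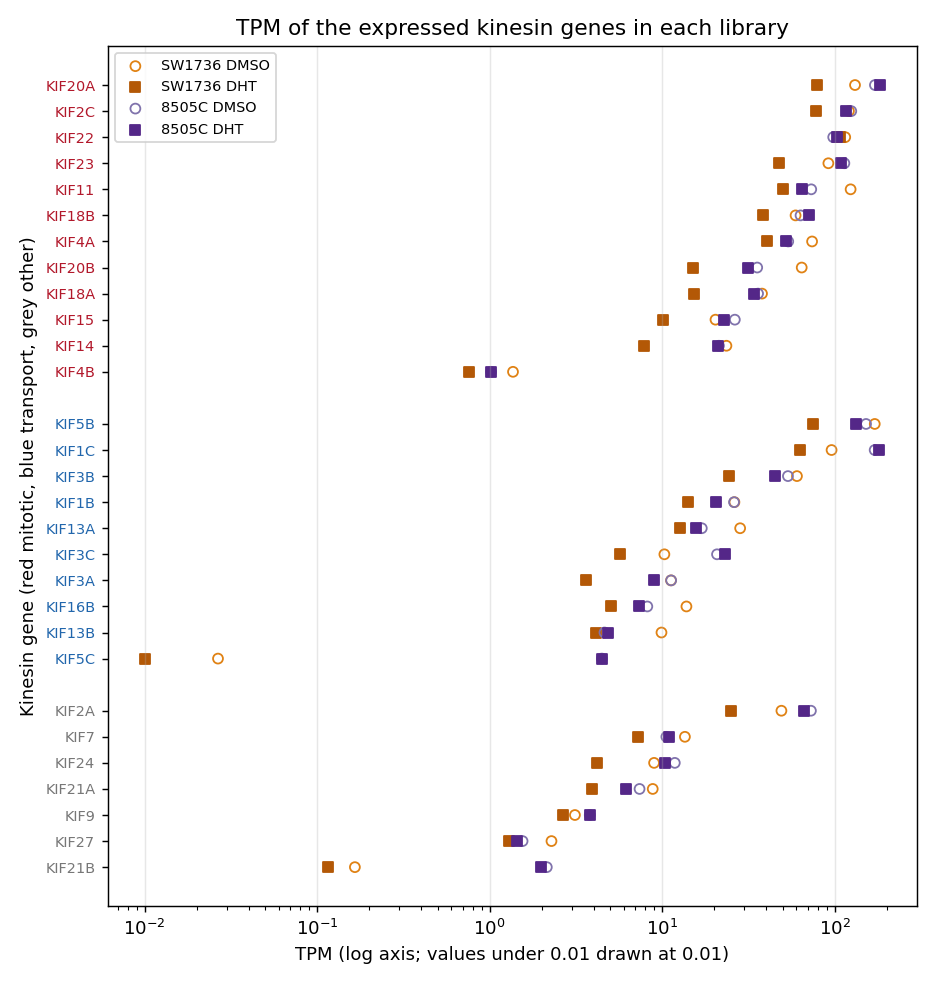
TPM of the 29 expressed kinesin genes, on a log axis, with a point for each library and the genes grouped by class and ordered by mean TPM. In SW1736 the point for DHT lies to the left of the point for DMSO in all 29 genes, and the 8505C points lie close together. KIF5C in SW1736 with DHT, listed at 0, is drawn at 0.01.

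The question of the treatment is how the mRNAs of each line differ between DHT and vehicle. In SW1736 all 29 expressed kinesins had less TPM with DHT than with DMSO, beside 77.8% of all genes tested with a difference below 0. They ranged from KIF20B, which was 76.6% lower, to KIF22, which was 6.38% lower. KIF5C, at 0.0266 TPM in the control and listed at 0 in the treated library, is too low to be read. Differences are those of log2(TPM + 1), where the added 1 makes folds of low genes look smaller than they are. On this scale 11 of the 29 were at least 2-fold lower, beside 15.6% of all genes tested, and 0 were at least 2-fold higher, beside 2.78%. The median difference was -0.89 for the 12 expressed mitotic kinesins, -1.09 for the 10 expressed transport kinesins and -0.83 for the 7 others. The median of all 11711 genes was -0.42, so most genes shared part of this displacement, and values relative to the median gene are given beside those as deposited. In bulk RNA a smaller share of dividing cells and less mRNA per dividing cell cannot be told apart.

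Among the mitotic kinesins, 4 of 12 were lower by 2-fold or more in treated SW1736, beside 15.6% of all genes. KIF20B (build hg38, as for all gene positions here, chromosome 10, 89701590 to 89774943), which acts at the end of cell division, had 64.4 TPM in the control and 15.1 in the treated SW1736 library, and 35.6 and 31.6 in those of 8505C. Pairs of values below follow the same order, control first. Its difference in SW1736 was -2.03, or -1.61 relative to the median gene, the lowest of the 29. KIF14 (chromosome 1, 200551497 to 200620734), a motor of the midbody, stood at 23.6 and 7.85 TPM in SW1736 and at 21.3 and 21.0 in 8505C. Its difference was -1.47, or -1.06 relative to the median gene. The treated SW1736 library was the low one for both genes.

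KIF11 (chromosome 10, 92593068 to 92655395), which pushes the spindle poles apart, stood at 124 and 50.3 TPM in SW1736 and at 73.2 and 64.4 in 8505C. Its difference in SW1736 was -1.28, or -0.86 relative to the median gene, which is short of 2-fold. KIF18A, which limits the swinging of chromosomes at the spindle's centre, stood at 37.9 and 15.4 TPM in SW1736 and at 36.0 and 34.0 in 8505C. Its difference was -1.25, or -0.83 relative to the median gene. After centring on the median gene 2 of 12 mitotic kinesins were thus 2-fold lower, KIF20B and KIF14, beside 4.24% of all genes, and 0 were 2-fold higher, beside 4.71%.

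The next mitotic kinesins did not reach 2-fold in SW1736. KIF20A, needed for the last steps of division, stood at 131 and 79.0 TPM in SW1736 (-0.72) and at 171 and 183 in 8505C (0.09). KIF23, a subunit of centralspindlin, stood at 92.0 and 47.7 TPM in SW1736 (-0.93) and at 114 and 109 in 8505C (-0.07). KIF15, which helps keep the spindle bipolar, stood at 20.4 and 10.1 TPM in SW1736 (-0.95) and at 26.4 and 22.8 in 8505C (-0.20). KIF2C, which takes apart microtubule ends at centromeres, stood at 121 and 77.9 TPM in SW1736 (-0.63) and at 125 and 117 in 8505C (-0.09). In each of these genes the treated SW1736 library was the lowest of the 4.

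KIF22, a chromosome-arm motor (chromosome 16, 29790713 to 29805385), was the exception among the mitotic genes. It stood at 115 and 108 TPM in SW1736, a difference of -0.09, and at 98.1 and 103 in 8505C. Against the median gene it was 0.32 higher in SW1736, so its direction turned with the centring. Its mRNA, at 2505 nt, is the shortest of the 29, and against genes of like length, described below, it lay at 0.05. It became the highest kinesin of the treated SW1736 library, where KIF20A and KIF2C came next. In the deposited tables its locus overlaps several rows, among them the copied genes SULT1A3 and SULT1A4, so its value is less certain. KIF18B (-0.62) and KIF4A (-0.85) lay between these extremes in SW1736.

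KIF4B is an intronless relative of the chromosome condensation motor KIF4A, and their coding sequences in GENCODE 29 were 95.7% identical over 3702 aligned positions, beside 35.2% to 69.4% in 10 other pairs of related members. KIF4B stood at 1.37 and 0.754 TPM in SW1736 and at 1.02 in both 8505C libraries, whereas KIF4A stood at 74.0 and 40.6 in SW1736. The TPM of KIF4B was 44.8% lower with DHT in SW1736 and that of KIF4A 45.1% lower. Reads of KIF4A could be assigned to KIF4B, so its value is uncertain.

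Transport kinesins had a lower median than the mitotic ones in SW1736 with DHT as deposited (-1.09 and -0.89). Of the 10, 6 were lower by 2-fold or more, beside 15.6% of all genes. All 10 have long mRNAs, and among genes of the longest length class, described below, that share was 29.3%. KIF5B (chromosome 10, 32009010 to 32056443) stood at 171 and 74.5 TPM in SW1736 and at 152 and 133 in 8505C, and its difference in SW1736 was -1.19. KIF3A and KIF3B, which pair in the motor that supplies cilia, had differences of -1.40 and -1.27. KIF3A stood at 11.3 and 3.64 TPM in SW1736 and at 11.3 and 9.02 in 8505C. KIF3B stood at 60.5 and 24.6 TPM in SW1736 and at 53.6 and 44.8 in 8505C. In all 3 genes the treated SW1736 library stood apart below the other 3.

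KIF16B, a carrier of endosomes, stood at 13.8 and 5.06 TPM in SW1736 (-1.29) and at 8.20 and 7.34 in 8505C. KIF13A, another endosomal motor, stood at 28.3 and 12.7 TPM in SW1736 (-1.10) and at 17.0 and 15.7 in 8505C. KIF13B stood at 9.91 and 4.15 TPM in SW1736 (-1.08) and at 4.63 and 4.86 in 8505C. After the same centring 0 of 10 transport kinesins were 2-fold lower or higher, beside 4.24% and 4.71% of all genes, KIF3A coming nearest at -0.98.

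The remaining transport genes differed less in SW1736. KIF1C, which carries vesicles and mRNA, stood at 96.0 and 63.2 TPM in SW1736 (-0.59) and at 171 and 181 in 8505C (0.09). KIF3C, a relative of KIF3B that pairs with KIF3A, stood at 10.3 and 5.69 TPM in SW1736 (-0.76) and at 20.8 and 23.0 in 8505C (0.14). KIF1B, a mitochondrial and vesicle motor, stood at 26.2 and 14.0 TPM (-0.86). All 3 were lower with DHT in TPM, and relative to the median gene they lay at -0.18, -0.34 and -0.44.

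Among the other kinesins, 1 of 7 expressed genes was 2-fold lower in SW1736, near the 15.6% of all genes. It was KIF21A, a regulator of microtubule growth, at 8.82 and 3.90 TPM (-1.003), with 7.39 and 6.21 in 8505C. None was 2-fold lower against the median gene, beside 4.24% of all genes, and KIF21A lay there at -0.58. KIF2A, which shortens microtubules in spindles and in neurons, stood at 49.1 and 25.1 TPM in SW1736 (-0.94) and at 72.8 and 66.8 in 8505C (-0.12). KIF24, a centriolar protein, stood at 8.98 and 4.17 TPM in SW1736 (-0.95) and at 11.8 and 10.4 in 8505C (-0.17). KIF7, a ciliary regulator of Hedgehog signalling, stood at 13.5 and 7.202 TPM in SW1736 (-0.83) and at 10.6 and 11.0 in 8505C (0.05). KIF9 and KIF27, at 1.29 to 3.80 TPM over the libraries, had differences of -0.18 and -0.52 in SW1736. KIF20A, KIF7, KIF9 and KIF24 overlap another protein-coding gene in the deposited tables, and KIF9 also overlaps its antisense RNA. Each of these overlaps is with a gene on the opposite strand. Reads could be shared if they were assigned without regard to strand, which was not tested.

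**Figure D2:**
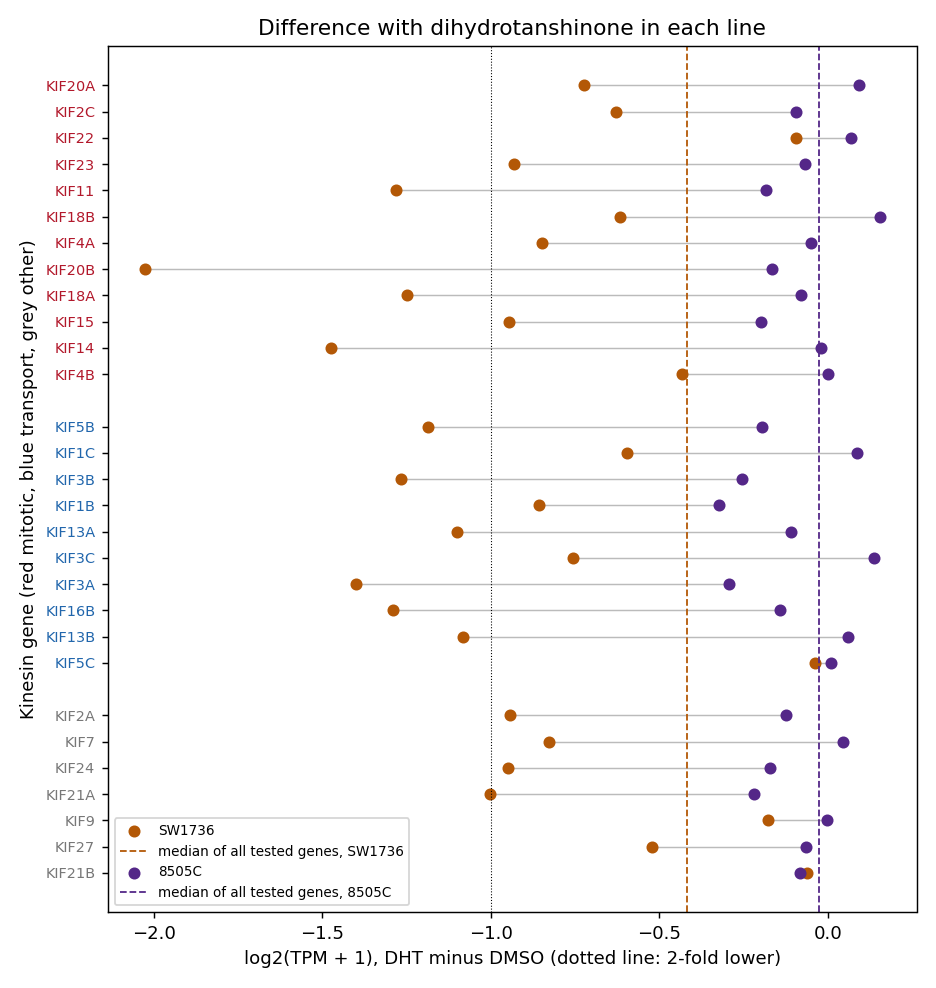
Difference in log2(TPM + 1) between DHT and DMSO for the 29 expressed kinesins, with a point for SW1736 and a point for 8505C joined by a grey line, and dashed lines at the median of all genes tested (-0.42 in SW1736 and -0.03 in 8505C). The SW1736 points range from -2.03 to -0.04 and the 8505C points from -0.32 to 0.15.

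The low values in SW1736 moved together with mRNA length, and the 2 classes differ in it. The median length of the longest GENCODE 29 mRNA was 6624 nt for the 10 expressed transport kinesins, 4282 nt for the 12 mitotic ones and 3434 nt for the 11687 genes tested that have a length. All 10 transport kinesins and 4 of the 12 mitotic ones fell in the longest of 3 equal length classes of genes, from 4492 nt upwards. In that class the median difference of all genes with DHT in SW1736 was -0.72 and 29.3% were at least 2-fold lower. In the middle class the median was -0.46 and 12.5% were 2-fold lower, and in the shortest -0.14 and 4.88%.

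Centred on the median of their own length class, 1 of 12 mitotic kinesins was 2-fold lower in SW1736, KIF20B at -1.31, and 0 of 10 transport kinesins, beside 2.77% of all genes. None was 2-fold higher, beside 4.93%. The medians were then -0.33 for the mitotic and -0.37 for the transport class, with 10 of 12 and 8 of 10 members below 0. KIF18A (-0.79), KIF14 (-0.76), KIF3A (-0.68), KIF16B (-0.57) and KIF11 (-0.56) followed KIF20B. KIF1C lay at 0.12 and KIF1B at -0.14, so the low TPM of these long mRNAs was close to that of genes of like length, and the direction of KIF1C turned. In all, 7 of the 29 lay above 0 in this centring and 0 of 29 as deposited. Among the 7, KIF4B, KIF21B, KIF27, KIF5C and KIF9 averaged only 1.04 to 3.34 TPM. There the added 1 shrinks the difference, so their sign after centring is not read. The others were KIF1C and KIF22. KIF22, the only expressed kinesin in the shortest class, lay at 0.05, close to genes of like length. KIF4B and KIF5C were also among the mitotic and transport members not below 0.

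GC content moved with the differences as well. Across the 29 expressed kinesins, Spearman's rho between the SW1736 difference and the GC content of the mRNA was 0.62, and with mRNA length it was -0.27. Across the 11687 genes these were 0.30 and -0.43. The points share the same pair of libraries, genes are not independent replicates and no p-value is given. KIF20B has an mRNA of 34.2% GC, KIF18A of 37.0%, KIF14 and KIF11 of 38.3% and KIF5B of 39.1%, whereas KIF22 has 58.9% and KIF18B 58.4%. The order was not strict, since KIF7, at 64.1% GC, lay at -0.83 and KIF3C, at 56.0%, at -0.76. The rho of 0.62 also includes KIF21B (59.7% GC, -0.06) and KIF5C (44.5%, -0.04). Their SW1736 levels are near 0, and the added 1 shrinks their differences. Centred within 25 bins of length and GC content, a setting chosen after the data were seen, KIF20B stood at -1.20, KIF14 at -0.65 and KIF16B at -0.63. The class medians were then -0.29 for mitotic and -0.33 for transport kinesins, and 1 of 12 and 0 of 10 members were 2-fold lower, beside 2.31% of all genes, with 0 higher, beside 4.97%. The part of length and GC content in the single values was not tested further.

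**Figure D3:**
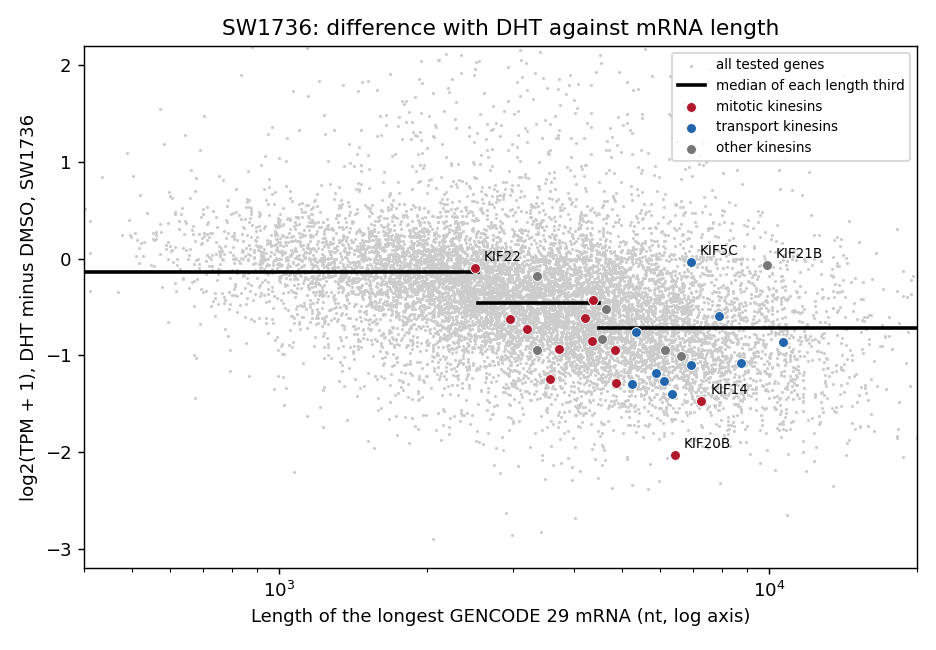
Difference in log2(TPM + 1) between DHT and DMSO in SW1736 against the length of the longest GENCODE 29 mRNA on a log axis, with grey points for all genes tested, coloured points for the expressed kinesins and black bars at the median of each of 3 length classes (-0.14, -0.46 and -0.72). KIF20B lies -1.31 from the bar of its class and KIF22 lies 0.05 above its own, and 147 of the 11687 genes fall outside the plotted range.

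In 8505C the kinesin mRNAs were close to the same with DHT and DMSO. Of the 29 expressed members 0 were 2-fold lower and 0 were 2-fold higher, beside 0.171% and 0.273% of all genes, so a share of 0 is near the background. The count was also 0 higher and 0 lower centred on the median gene (background 0.29% higher), on length classes (0.274%, and 0.154% lower) and on length and GC bins (0.291%, and 0.145% lower). The differences ranged from -0.32 for KIF1B to 0.15 for KIF18B, with medians of -0.06 for mitotic, -0.12 for transport and -0.08 for the other kinesins, beside -0.03 for all genes. KIF1B stood at 26.1 and 20.7 TPM in 8505C, KIF3A at 11.3 and 9.02 (-0.29) and KIF3B at 53.6 and 44.8 (-0.25). KIF18B, a partner of KIF2C at microtubule ends, stood at 63.4 and 70.7. In 20 of 29 members the 8505C value was below 0, as in 57.0% of all genes. KIF20B, lowest in SW1736, stood at -0.17 in 8505C, so the SW1736 value lay -1.86 from that of 8505C, a gap that was not tested.

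Summed over the class, the mitotic kinesins had 43.2% less TPM in treated than in control SW1736 (491 and 864) and 1.26% less in 8505C (808 and 819). The transport kinesins had 51.2% less in SW1736 (209 and 428) and 5.38% less in 8505C (444 and 469). The ratio of mitotic to transport TPM was 2.02 with DMSO and 2.35 with DHT in SW1736, and 1.74 and 1.82 in 8505C. The percentage was thus smaller for the mitotic class than for the transport class in both lines, with no replicate error to set it against. In SW1736 the less certain KIF22 made up 115 of the 864 and 108 of the 491 mitotic TPM. With DHT KIF22 was only 6.38% lower. The smaller percentage of the mitotic class in SW1736, and its higher ratio with DHT, therefore rest in part on KIF22. The sums were not computed without it, so the size of that part is not given. Centred on length classes, the SW1736 medians of the classes were close, at -0.33 for mitotic and -0.37 for transport kinesins.

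**Figure D4:**
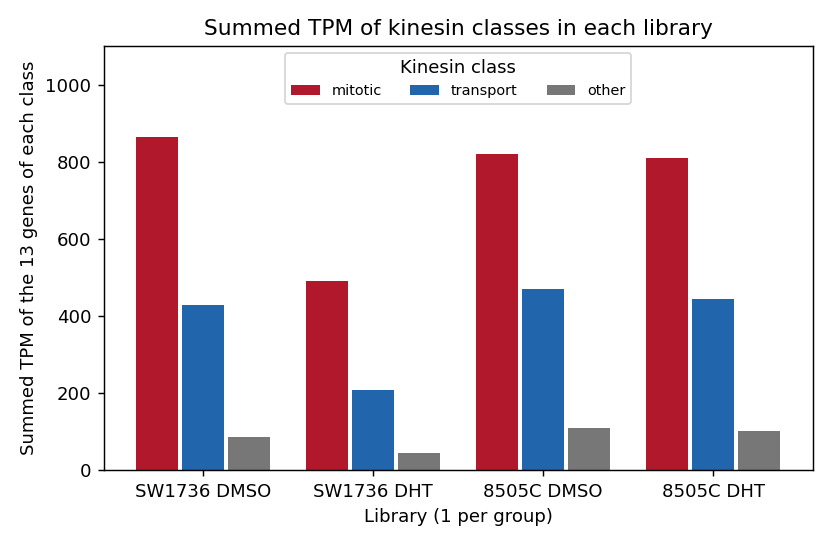
Summed TPM of the 13 genes of each kinesin class in each library, drawn from 0, with 1 library per group and therefore no error bars. The treated SW1736 library is the lowest in each class, at 491 TPM for mitotic and 209 for transport kinesins, and the 8505C libraries differ little.

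Between the untreated lines few kinesins differed. With DMSO 2 of 29 were at least 2-fold higher in 8505C than in SW1736, beside 9.96% of all genes, and 0 were at least 2-fold lower, beside 12.6%. Both are low members. KIF5C, a conventional kinesin known from neurons (chromosome 2, 148875223 to 149026759, with a further copy on an alternate haplotype), stood at 4.47 and 4.50 TPM in 8505C with DMSO and DHT, and at 0.0266 TPM and listed at 0 in SW1736. KIF21B, a relative of KIF21A known from neurons and lymphocytes, stood at 2.14 and 1.97 TPM in 8505C and at 0.165 and 0.116 in SW1736. Both genes averaged 1 TPM or more only through the 8505C libraries. The count of 2 thus rests on members that passed the threshold through the line where they are high. No fold is given against their SW1736 levels, which are near 0.

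KIF3C stood at 20.8 TPM in 8505C and 10.3 in SW1736 with DMSO, a difference of 0.95 that reaches 2-fold against the median gene (1.001, where 3 of 29 were higher, beside 10.8% of all genes, and 0 lower, beside 11.6%), and KIF1C at 171 and 96.0 (0.82). The 3 include KIF5C and KIF21B, which passed the threshold only through 8505C. On the other side, KIF13B stood at 4.63 and 9.91 TPM (-0.95), KIF20B at 35.6 and 64.4 (-0.84) and KIF11 at 73.2 and 124 (-0.75). The class medians were -0.11 for mitotic and -0.09 for transport kinesins, beside -0.05 for all genes, so neither class as a whole stood higher in one line.

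With DHT in both lines, 13 of 29 kinesins were at least 2-fold higher in 8505C than in SW1736, beside 24.7% of all genes, and 0 were 2-fold lower, beside 10.6%. They were 6 mitotic, 4 transport and 3 other genes. KIF5C and KIF21B, which passed the expression threshold only through 8505C, are among the 13. This comparison shares its SW1736 library with the treatment comparison of that line, so the values are given side by side only. KIF3C lay at 1.84 with DHT and 0.95 with DMSO, KIF1C at 1.50 and 0.82, KIF2A at 1.38 and 0.56, KIF14 at 1.32 and -0.14, KIF20A at 1.20 and 0.38, KIF23 at 1.17 and 0.31, and KIF24 at 1.14 and 0.36. KIF20B, lower in 8505C with DMSO (-0.84), was higher there with DHT (1.02). Against the median gene, which lay at 0.37, 5 of 29 were 2-fold higher, beside 14.5% of all genes, and none of them was mitotic. KIF5C and KIF21B are among these 5 too, so this count also rests in part on the threshold. Against genes of the same length class 2 were 2-fold higher, KIF3C and KIF5C, both in the transport class, beside 13.2%. With length and GC bins the same 2 were, beside 12.7%, and KIF5C passed the threshold only through 8505C.

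The genes that work with kinesins were read from lists of the pathway. Of 5 kinesins with other names, 1 was 2-fold lower in treated SW1736, beside 15.6% of all genes. It was CENPE, the large motor of kinetochores, at 22.2 and 6.58 TPM (-1.61) with 39.9 and 37.0 in 8505C. KIFC1, which moves towards the minus ends and clusters spindle poles, stood at 122 and 84.3 TPM in SW1736 (-0.52), and KIFC3 at 74.1 and 72.9 (-0.02). Of 5 light chain and adaptor genes of kinesins 0 were 2-fold lower, against the same background (median -0.63). KLC1 and KLC2, light chains that join cargo to KIF5B, stood at 85.3 and 54.9 TPM and at 92.6 and 82.7 in SW1736. KIFAP3, the adaptor of KIF3A and KIF3B, stood at 8.70 and 4.53 (-0.81). In 8505C none of these 10 genes was 2-fold lower or higher, beside 0.171% and 0.273% of all genes.

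Of 20 spindle and midzone partners, 4 were 2-fold or more lower in treated SW1736 and 0 higher, with a median of -0.65, beside 15.6% and 2.78% of all genes and their median of -0.42. The count of 4 is near that share. The 4 were CIT (-1.39), a kinase that acts with KIF14, NUMA1 (-1.26), ECT2 (-1.11), which works with the centralspindlin of KIF23, and DLGAP5 (-1.09). PLK1, a mitotic kinase, stood at 215 and 222 TPM and AURKB at 179 and 171. None of the 20 was 2-fold lower or higher against the median gene, beside 4.24% and 4.71% of all genes. Of 17 proliferation genes, 3 were at least 2-fold lower, beside 15.6% of all genes, and 0 higher (median -0.58), namely MKI67 (-1.69), TOP2A (-1.51) and PCNA (-1.02), whereas CDC20 stood at 500 and 549 TPM. Against the median gene MKI67 and TOP2A were 2-fold lower, beside 4.24% of all genes. In treated SW1736 19 of the 20 partners and 16 of the 17 proliferation genes lay below 0, beside 77.8% of all genes, with PLK1 (0.04) and CDC20 (0.13) as the exceptions.

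Dynein, the motor that moves the opposite way, was uneven. Of 25 expressed genes of cytoplasmic dynein and dynactin 3 were 2-fold lower in treated SW1736 and 0 higher, beside 15.6% and 2.78% of all genes, so the count does not exceed the background. Their median was -0.39, beside -0.42 for all genes. DYNC1H1, the heavy chain, stood at 90.0 and 24.1 TPM in SW1736 (-1.86) and at 139 and 130 in 8505C (-0.10). DYNC1LI2 (-1.01) and the adaptor gene HOOK3 (-1.28) were the other 2. BICD1, an adaptor of dynein, was higher, at 14.9 and 26.1 TPM (0.78, or 1.19 against the median gene), and DYNLL1, a light chain of many complexes, stood at 927 and 885. In 8505C 0 of the 25 were 2-fold lower or higher, beside 0.171% and 0.273% of all genes.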

How the data were processed

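mRNA libraries were made with the Universal Plus mRNA-Seq kit from 1 µg of total RNA, per the labels' protocols. The build hg38 and the tools StringTie and bcl2fastq 2.20 are listed per the submitters' processing notes; no aligner or annotation is given in the sources used here. The tables deposited by the authors give TPM, which sums to 1000000 per library, FPKM, which in each library is TPM times a constant, and read coverage (signal), used here only as its ratio to FPKM to estimate depth.

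Rows of a gene identifier were summed. Of 26485 identifiers 25371 were matched to RefSeq genes, and the 11711 protein-coding ones averaging 1 TPM or more were compared as differences of log2(TPM + 1). With 1 library per group no test was run, and precision between cultures is unknown. Counts at 2-fold, medians and centred values were computed in Python 3.11.15 with pandas 2.3.3, and the counting was tested on simulated data. mRNA lengths and GC contents are those of the longest protein-coding GENCODE 29 transcript. Promoters are from RefSeq. No protein sequence was used here.

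Values in all libraries are given for the 3 highest members of each class and members 2-fold apart in any of 4 comparisons, as deposited or relative to the median gene. Members, classes and lists were chosen with earlier results of these data known. The alternatives were other pseudocounts, filters, thresholds, scalings and class memberships. KIF1B, KIF4A, KIF4B, KIF18B, and the list genes described that lay under 2-fold, were picked after their values were seen. Centring on 25 bins of length and GC content, the removal of overlapping members and the spacing of motifs were added after the data were seen.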

Additional observations from a re-analysis of the deposited data

Results flagged for a closer look

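For 9 of the 29 expressed kinesins the single library pair of SW1736 lay lower with DHT and that of 8505C higher, in log2(TPM + 1) as deposited. The share of all genes with this pattern was not computed. Of all genes tested, 77.8% lay below 0 in SW1736 and 57.0% in 8505C, so the count is not read as particular to kinesins. With 1 library per group, how the lines differ was not tested. The SW1736 value minus the 8505C value was -1.14 for KIF13B, -0.90 for KIF3C, -0.87 for KIF7, -0.82 for KIF20A, -0.77 for KIF18B, -0.68 for KIF1C, -0.43 for KIF4B, -0.16 for KIF22 and -0.046 for KIF5C. In 8505C these 9 genes lay at most 0.15 above 0. Among them KIF5C is too low in SW1736 to be read, and KIF4B lay only 0.00076 above 0 in 8505C.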

How the results depend on the processing

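No paired analysis was possible because each group had 1 library and the labels give no replicate numbers. Of 312 alternative values of counts, medians and sums, 271 stayed within 1.5-fold (counts and sums) or within 0.58 on the log2 scale (medians), and 41 moved. Counts that were 0 as deposited and stayed 0 are among the 271. The sums in FPKM are among the 41, since the change of unit alone takes them past 1.5-fold. A change of sign was looked for only in medians past 2-fold. Only the transport median in SW1736 with DHT (-1.09) met that, and it kept its sign, so this says little of the other values. In SW1736 with DHT, the 4 mitotic kinesins at least 2-fold lower were 2 with median scaling, 1 centred on mRNA length classes or on length and GC bins and 10 at 1.5-fold, and the 6 transport kinesins were 2 with a pseudocount of 5 or with FPKM and 0 with median scaling or centred on length classes or on length and GC bins. The share of all genes at 1.5-fold was not computed for any comparison. In SW1736 with DHT the lower quartile of all genes was -0.81, itself past 1.5-fold, so counts at 1.5-fold are not read as particular to kinesins. The medians moved to -0.29 (mitotic, length and GC bins), -0.37 (transport, length classes) and -0.33 (transport, length and GC bins). Between lines with DMSO, 2 mitotic kinesins were lower in 8505C at 1.5-fold, 1 transport kinesin with a pseudocount of 0.1 and 3 at 1.5-fold. The 1 transport kinesin higher in 8505C became 2 with a pseudocount of 0.1, with median scaling, with KIF21A and KIF21B counted as transport and with length and GC bins, 3 at 1.5-fold, and 0 with a pseudocount of 5 or at a mean of 5 TPM. With DHT in both lines, the 6 mitotic kinesins higher in 8505C were 3 with a pseudocount of 5, 1 with FPKM and 0 with median scaling, length classes or length and GC bins, and the 4 transport kinesins were 2 with a pseudocount of 5, length classes or length and GC bins. The medians there moved to 0.29 (mitotic, length and GC bins), 0.19 (transport, length classes) and 0.086 (transport, length and GC bins). In FPKM, another unit, the sums from SW1736 with DMSO to 8505C with DHT were 379, 251, 358 and 359 for mitotic and 188, 107, 205 and 197 for transport kinesins. Median scaling, FPKM and larger pseudocounts shift or shrink all values by construction; for the other settings the cause was not tested. Depth limits the members near 1 TPM.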
